A study of Sus scrofa with 31 samples.

Results

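TREM2 is a surface receptor of microglia, the resident macrophages of the brain, and TYROBP, SYK, PLCG2 and INPP5D carry or restrain its signal. The 5 genes were chosen by name for these roles, with earlier results of these data known, and were found among the 31907 genes of the count table by their Ensembl identifiers: ENSSSCG00000039270 for TREM2 and, through the gene names in the study's supplementary tables, ENSSSCG00000002919 for TYROBP, ENSSSCG00000009589 for SYK, ENSSSCG00000002688 for PLCG2 and ENSSSCG00000016298 for INPP5D. All 5 passed the filter on low counts, which asks for a level in each sample of at least 1 group. INPP5D passed it in every group, TYROBP, SYK and PLCG2 in the sorted cells alone and TREM2 in microglia alone. A call of higher in the groups that passed than in those that did not is thereby all but fixed. No p-value is given for such calls. Their expression was compared in 31 RNA samples of young pigs. Microglia were sorted as CD11b-high cells with low or no CD45 from the cerebellum, the frontal cortex and the hippocampus (n = 8 samples each). Alveolar macrophages, the macrophages of the lung airspace, were sorted from lavage fluid as F4/80-positive cells with low or no CD163 (n = 3), and whole hippocampal tissue was not sorted (n = 4). The animals were male piglets of a commercial cross, 1 from each litter. The labels give 15 pig tags and no age or housing, and the litters came from both standard and freer pens, so housing was not tested. RNA was extracted by one method from sorted cells and by another from tissue, so extraction and sorting cannot be told apart. Pairs of hippocampal microglia and hippocampal tissue came from 4 pigs and pairs of cerebellar and frontal cortex microglia from 6 pigs. Pairs of cerebellar and hippocampal microglia came from 4 pigs, and pairs of frontal cortex and hippocampal microglia from 3 pigs.

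TREM2 binds lipids, lipoproteins such as APOE, and cell debris. It has almost no signalling tail of its own and sits in the membrane with TYROBP (also called DAP12), an adaptor that carries an ITAM, a short tyrosine motif. Src family kinases phosphorylate the ITAM, the kinase SYK docks on it, and SYK activates PLCG2, a phospholipase C that releases calcium and diacylglycerol signals, and the PI3 kinase branch. INPP5D (SHIP1) is a phosphatase that removes a phosphate from the PI3 kinase product and limits the pathway. TREM2 is known in the brain as a microglial gene linked by genetics to Alzheimer's disease, as are PLCG2 and INPP5D, and loss of TREM2 or TYROBP causes a bone and brain disease in people.

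The 5 genes lie apart in the genome (Sscrofa11.1, positions of RefSeq). TREM2 spans chr7:36465921-36471509 on the minus strand with 5 exons, inside a cluster of related receptors. TYROBP spans chr6:45309199-45312562 on the minus strand with 5 exons. PLCG2 lies on the same chromosome at chr6:6433146-6603092, minus strand, with 35 merged exons. SYK spans chr14:2103706-2160886 on the plus strand with 13, and INPP5D chr15:133501067-133626647 on the plus strand with 28.

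The stretches of 250 bases just before the RefSeq starts of TREM2 and TYROBP are shown because the receptor and the adaptor it signals through had unlike levels in the 2 kinds of macrophage. They are read 5′ to 3′ on each gene's own strand, at chr7:36471510-36471759 for TREM2 and chr6:45312563-45312812 for TYROBP, both on the minus strand. Capitals mark a match to GAGGAA on either strand, the core of sites for PU.1, a transcription factor of macrophages.
TREM2: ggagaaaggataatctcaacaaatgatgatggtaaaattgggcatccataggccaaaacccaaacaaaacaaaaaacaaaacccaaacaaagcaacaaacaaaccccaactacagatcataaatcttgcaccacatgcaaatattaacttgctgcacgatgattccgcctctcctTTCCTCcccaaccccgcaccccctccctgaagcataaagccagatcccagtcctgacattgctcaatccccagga
TYROBP: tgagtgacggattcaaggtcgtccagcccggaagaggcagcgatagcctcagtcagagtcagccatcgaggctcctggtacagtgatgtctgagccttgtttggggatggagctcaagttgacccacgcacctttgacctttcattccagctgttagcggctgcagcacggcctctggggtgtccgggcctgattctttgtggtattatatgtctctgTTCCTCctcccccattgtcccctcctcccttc
Each stretch held 1 such match, and 22.0% of the 19556 stretches of this length before protein-coding genes held at least 1. Neither held the composite motif of an ETS and an IRF factor, found in 2.26% of them, or the E-box CACGTG, found in 6.39%. These matches describe letters and not bound sites, and no binding was measured.

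The total count ran from 18438494 to 43477403 per sample. The 7 microglia markers summed to 2150 to 4159 CPM (counts scaled to library size and TMM factor) in the microglia samples, 114 to 152 CPM in alveolar macrophages and 172 to 266 CPM in tissue. The alveolar macrophages had the macrophage genes CD163, which was also part of their gate (411 ± 154 CPM, SD), MRC1 (268 ± 71.6 CPM), ADGRE1 (95.9 ± 43.9 CPM), SIGLEC1 (46.0 ± 6.53 CPM) and PPARG (30.0 ± 24.5 CPM), against means of 4.20, 0.997, 0, 18.3 and 7.20 CPM in microglia. FABP4 and MARCO, the other 2 genes of the list, were at 0 counts in all 3, and MARCO was at 0 in every sample of the series. The T cell list of 6 genes summed to 668 to 1417 CPM in them against 14.9 to 73.4 CPM in microglia, the B cell list of 5 to 400.0 to 588 CPM against 33.4 to 169 CPM, the NK cell list of 5 to 255 to 352 CPM against 109 to 249 CPM and the neutrophil list of 5 to 280.0 to 672 CPM against 4.34 to 40.9 CPM. The part of these cells in the differences between microglia and macrophages was not tested. Markers of neurons, astrocytes and oligodendrocytes summed to 716 to 2153 CPM in 5 microglia samples, 3 of cerebellum and 2 of frontal cortex, and to 177 to 541 CPM in the other 19. Results that these 5 samples changed are given with and without them.

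TREM2, the receptor, was abundant in all microglia, low in tissue and lowest in alveolar macrophages. Its lowest, median and highest levels were 343, 491 and 729 CPM in cerebellar microglia, 296, 415 and 509.6 CPM in frontal cortex microglia and 249.5, 427 and 500.5 CPM in hippocampal microglia. The 4 tissue samples had 7.50, 10.6, 10.9 and 12.2 CPM, and the 3 alveolar macrophage samples 0.506, 1.36 and 4.63 CPM, from 18, 62 and 172 counts. No microglia sample overlapped a tissue or macrophage sample, and every tissue sample was above every macrophage sample. TREM2 was 201-fold higher in microglia than in alveolar macrophages (edgeR log2 fold change 7.65 ± 0.50, SE, normal 95% interval 102 to 397-fold). TREM2 passed the filter on low counts through microglia alone, which all but fixes a call of higher there. Without the alveolar macrophages of pig 12829, the sample with 172 counts, the log2 fold change was 8.84, above the interval's upper end of 8.63. In hippocampal microglia TREM2 was 39.0-fold higher than in hippocampal tissue (log2 5.29 ± 0.39). In alveolar macrophages it was lower than in tissue by 4.77-fold (log2 -2.25 ± 0.41, edgeR quasi-likelihood test, Benjamini-Hochberg adjusted p = 2.12e-05). Limma-voom did not make this call (log2 -2.77, adjusted p = 0.0318).

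TYROBP, the adaptor, was high in both kinds of macrophage. Its lowest, median and highest levels were 70.4, 113 and 172 CPM in the cerebellum, 82.0, 141 and 183 CPM in the frontal cortex and 76.5, 140.1 and 190.3 CPM in hippocampal microglia. Alveolar macrophages had 54.3, 93.9 and 142 CPM and tissue 2.03, 3.67, 3.83 and 4.10 CPM. The macrophage values ran from below the microglia range to inside it, while every tissue value was below all sorted samples. Microglia and alveolar macrophages did not differ by the test (log2 0.42 ± 0.26, 95% interval -0.09 to 0.94, edgeR adjusted p = 0.168). The log2 fold change was 0.15 without the macrophages of pig 12821 and 0.87 without those of pig 12984, and neither passed. With the pig as a block in edgeR, where 2 pigs link the groups, the difference passed (log2 0.97, adjusted p = 0.00686). TYROBP was 41.0-fold higher in hippocampal microglia than in tissue (log2 5.36 ± 0.35) and 28.4-fold higher in alveolar macrophages than in tissue (log2 4.83 ± 0.36).

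SYK, the kinase that docks on the adaptor, varied less among sorted cells than between them and tissue. Its lowest, median and highest levels were 58.4, 76.5 and 86.0 CPM in cerebellar, 65.4, 89.9 and 106 CPM in frontal cortex and 71.8, 88.2 and 107 CPM in hippocampal microglia. Alveolar macrophages had 91.6, 105 and 122 CPM and tissue 2.47, 2.58, 3.28 and 3.58 CPM. Cerebellar microglia were all below the macrophages (log2 -0.49 ± 0.14, edgeR adjusted p = 0.00352), and the other regions overlapped them. Without normalization factors the call for the cerebellum was lost (log2 -0.41, edgeR adjusted p = 0.0181). Over all microglia SYK was below macrophages by a log2 fold change of -0.34 ± 0.12, which missed the threshold of 0.01 (edgeR adjusted p = 0.0181). It passed with DESeq2 (log2 -0.39, adjusted p = 0.00333). Against tissue, SYK was 29.6-fold higher in hippocampal microglia (log2 4.89 ± 0.17).

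PLCG2, the phospholipase, was higher in alveolar macrophages than in every microglia sample. Its lowest, median and highest levels were 178, 239 and 276 CPM in the cerebellum, 221, 329 and 369.9 CPM in the frontal cortex and 273, 305 and 325 CPM in hippocampal microglia. Alveolar macrophages had 388, 393 and 569 CPM and tissue 10.1, 11.3, 11.9 and 12.3 CPM. No groups overlapped except the 3 microglia regions among themselves. PLCG2 was lower in microglia than in macrophages (log2 -0.67 ± 0.11, edgeR adjusted p = 9.97e-06) and 26.6-fold higher in hippocampal microglia than in tissue (log2 4.73 ± 0.16).

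INPP5D, the phosphatase, was higher in microglia than in macrophages. Its lowest, median and highest levels were 365, 646 and 852 CPM in the cerebellum, 485, 714 and 890.4 CPM in the frontal cortex and 645, 764 and 845 CPM in hippocampal microglia. Alveolar macrophages had 391, 393 and 412 CPM and tissue 24.4, 28.4, 29.6 and 36.1 CPM. Of the 24 microglia samples, only the cerebellar one of pig 12902 reached below the macrophages. The fold was 1.75 over macrophages (log2 0.81 ± 0.17, edgeR adjusted p = 0.00019) and 25.3 over tissue in the hippocampus (log2 4.66 ± 0.21, edgeR adjusted p = 8.68e-18).

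**Figure D1:**
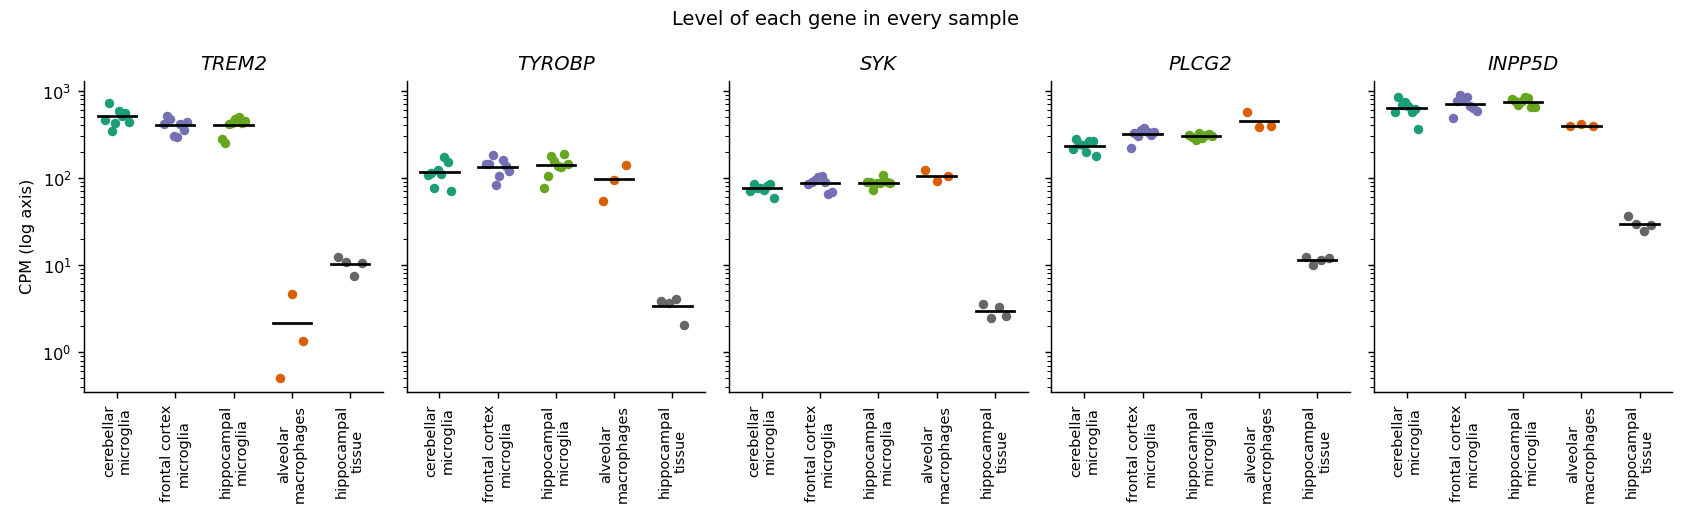
Level of each of the 5 genes in every sample, in CPM on a log axis, by sample group. Points are samples and bars are group means. TREM2 alone falls to 0.506 to 4.63 CPM in alveolar macrophages, while the other 4 genes stay near their microglia levels there, and in tissue all 5 lie below the microglia.

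Of the 5 genes, TREM2 and INPP5D were called higher and PLCG2 lower in microglia than in alveolar macrophages at an adjusted p under 0.01, against 23.5% and 24.0% of all 11633 genes tested called higher and lower. TREM2 was the only member past 3-fold higher, against 12.2% of genes. All 5 were called higher in hippocampal microglia than in tissue, against 32.2% of genes higher and 37.0% lower, and all 5 passed 4-fold, against 11.7%. TYROBP, SYK, PLCG2 and INPP5D were called higher and TREM2 lower in alveolar macrophages than in tissue, against 28.9% and 28.7%. Of the 5, only INPP5D passed the filter on low counts in tissue. For the others the filter all but fixed the calls of higher than in tissue, and for TREM2 also that over macrophages. Set beside the shares of all genes, those calls say little about the members. These comparisons share samples: the macrophages enter the first and the third, and the tissue the second and the third. In whole tissue, fewer microglia and less RNA per cell cannot be told apart. Without TMM or other factors the median log2 fold change of all genes moved from -0.08 to 0.14 in hippocampal microglia against tissue, and with RLE factors to -0.30, while the log2 fold change of TREM2 was 5.49 and 5.07.

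**Figure D2:**
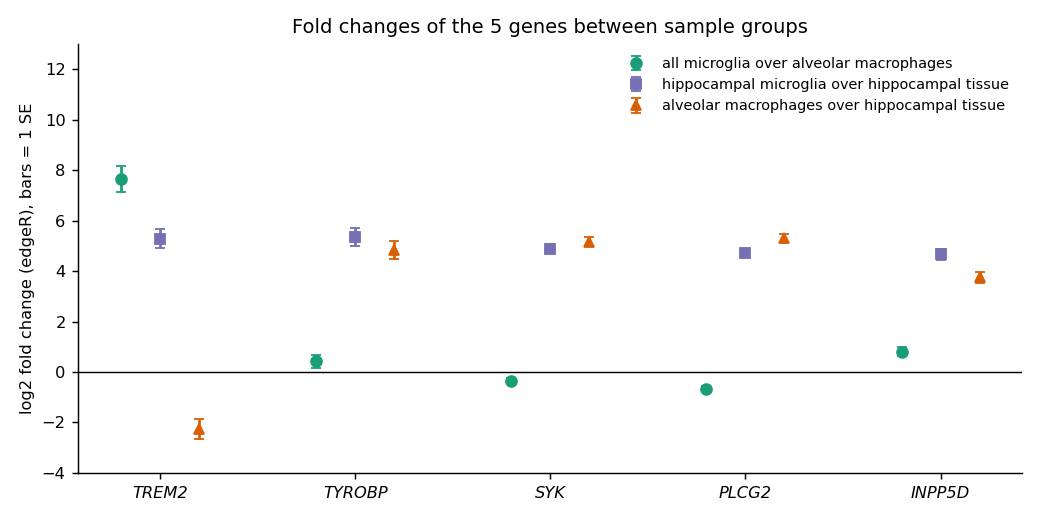
Log2 fold changes of the 5 genes in 3 comparisons from edgeR, with bars of 1 SE. Against tissue, sorted microglia show 4.66 to 5.36 for all 5 genes, while alveolar macrophages show 3.75 to 5.30 for 4 genes and -2.25 for TREM2.

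Ordered by mean level, TREM2 ran from cerebellar (508 ± 118 CPM, SD, n = 8) to hippocampal (402 ± 89.2) and frontal cortex microglia (400.3 ± 78.3), tissue (10.3 ± 2.00, n = 4) and macrophages (2.16 ± 2.18, n = 3). The 3 regions, as neighbours in that order, were not told apart (edgeR adjusted p = 0.466 and 0.993). INPP5D ran from hippocampal (751 ± 78.9 CPM) to frontal cortex (707 ± 138) and cerebellar microglia (637 ± 145), macrophages (399 ± 11.6) and tissue (29.6 ± 4.86), and the step from cerebellum to macrophages passed (edgeR adjusted p = 0.00252). TYROBP had the same order, with 139.8 ± 37.0, 135 ± 31.9, 116 ± 34.1, 96.7 ± 43.9 and 3.41 ± 0.935 CPM, and of its neighbours only macrophages and tissue differed by the test. SYK had macrophages first (106 ± 15.2 CPM), then hippocampal (88.3 ± 9.42), frontal cortex (87.7 ± 14.3) and cerebellar microglia (75.8 ± 9.05) and tissue (2.98 ± 0.536), and again only the step to tissue passed. PLCG2 ran from macrophages (450.0 ± 103 CPM) to frontal cortex (319 ± 45.0), hippocampal (303 ± 17.3) and cerebellar microglia (235 ± 35.1) and tissue (11.4 ± 0.979). The first step (edgeR adjusted p = 0.00198) and the last were called. Without normalization factors the first step was lost (log2 -0.33, edgeR adjusted p = 0.0415).

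Per kilobase of merged RefSeq exons, the microglia levels ran from TREM2 (449 ± 109 CPM per kilobase, SD, n = 24) to TYROBP (222 ± 58.7), INPP5D (107 ± 19.7), SYK (35.9 ± 5.22) and PLCG2 (31.5 ± 5.49). In alveolar macrophages TYROBP led (165 ± 74.7 CPM per kilobase, n = 3), before INPP5D (61.3 ± 1.79), PLCG2 (49.7 ± 11.4) and SYK (45.4 ± 6.49), and TREM2 was last (2.22 ± 2.23). These levels depend on the exon lengths of the RefSeq models, which run from 587 bases for TYROBP to 9055 for PLCG2.

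The receptor relative to its adaptor was taken in each sample as the log2 CPM of TREM2 minus that of TYROBP. It was 1.76 ± 0.41 (SD, n = 24) in microglia, 1.60 ± 0.61 (n = 4) in tissue and -5.84 ± 1.32 (n = 3) in alveolar macrophages, whose samples were at -6.64, -6.57 and -4.32. The groups of microglia and macrophages did not overlap. They differed by 7.60 (exact permutation test, two-sided, p = 0.000684, the smallest it can give; adjusted over 6 pairs of groups, p = 0.0041). The microglia came from 14 pigs, some of which gave several samples or macrophages as well. The permutations between groups took each sample as 1 unit, so their p-values do not allow for shared pigs. Hippocampal microglia and tissue differed by -0.07 (exact permutation p = 0.78), and macrophages and tissue by -7.45 (exact permutation p = 0.0571, the smallest possible; adjusted p = 0.0857). Cerebellar microglia, from 1.60 to 2.66, had a higher receptor to adaptor difference than frontal cortex microglia by 0.57 (exact permutation, adjusted p = 0.00932) and than hippocampal microglia by 0.62 (exact permutation, adjusted p = 0.00932). Within the 6 pigs with both regions, the cerebellum was higher than the frontal cortex in 6 of 6, by 0.54 ± 0.36 (SD; exact sign permutation p = 0.0312, the smallest possible). Without the 5 samples with the most brain cell markers, of which 3 are cerebellar, the differences were 0.33 and 0.42 and no longer passed (exact permutation, adjusted p = 0.117 and 0.114).

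**Figure D3:**
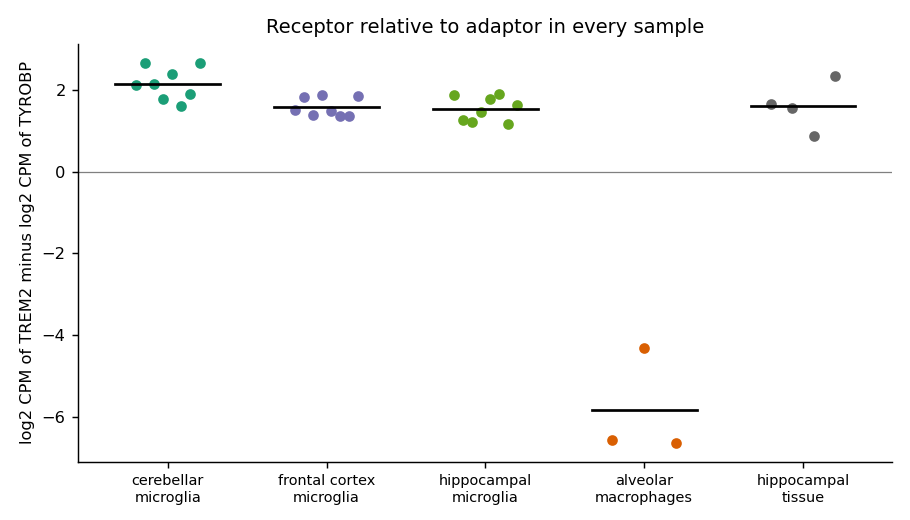
Log2 CPM of TREM2 minus log2 CPM of TYROBP in every sample, with group means as bars. Microglia and tissue lie between 0.86 and 2.66, and the 3 alveolar macrophage samples between -6.64 and -4.32.

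Between brain regions, none of the 5 genes passed an F test over the 3 regions in edgeR, against 2.03% of all genes. With so low a share, that none of 5 passed says little about them. At an unadjusted p under 0.05 the count was 1, PLCG2 (adjusted p = 0.0112), and limma-voom and DESeq2 each called it (adjusted p = 0.009 and 0.000443). In the pair of cerebellar and frontal cortex microglia, PLCG2 was the 1 member called lower in the cerebellum, against 0.971% of all genes (log2 -0.44 ± 0.10, edgeR adjusted p = 0.00724). No member was called higher, against 0.894%, and none was higher at an unadjusted p under 0.05 or by limma-voom or DESeq2. The call for PLCG2 was lost with the pig as a block in edgeR (log2 -0.43, adjusted p = 0.0785) and without any 1 of 6 samples: cerebellum of pigs 12583, 12750, 12758 and 12821, and frontal cortex of pigs 12750 and 12891 (adjusted p from 0.0104 to 0.0194). It held without the 5 samples with the most brain cell markers (log2 -0.47, edgeR adjusted p = 0.0045). PLCG2 in cerebellar against hippocampal microglia was at log2 -0.37 ± 0.10 (edgeR adjusted p = 0.0336). In the 4 pigs with both regions TREM2 was higher in the cerebellum in 4 of 4, by 0.41 ± 0.24 on the log2 scale (SD), and PLCG2 (-0.37 ± 0.11), SYK (-0.21 ± 0.06) and INPP5D (-0.20 ± 0.13) were lower in 4 of 4, with an exact sign permutation p of 0.125, the smallest possible. In the edgeR fit, frontal cortex and hippocampal microglia differed by no more than 0.09 on the log2 scale in any of the 5 genes. In the 3 pigs with both, PLCG2 (0.19 ± 0.13) and SYK (0.15 ± 0.13) were higher in the frontal cortex in 3 of 3. Their exact sign permutation p was 0.25, the smallest possible. TREM2, TYROBP and INPP5D were higher there in 2 of 3.

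Within the 6 pigs sampled in both regions, TREM2 was higher in the cerebellum in 6 of 6, by 0.43 ± 0.29 on the log2 scale (SD), from 0.03 in pig 12902 to 0.80 in pig 12599. The exact sign permutation p was 0.0312, the smallest possible with 6 pigs, and 0.156 adjusted over the 5 genes. PLCG2 was lower in the cerebellum in 5 of 6 pigs, by -0.39 ± 0.42 (exact sign permutation p = 0.0938). The exception was pig 12599, whose 2 samples were both among the 5 with the most brain cell markers. SYK was lower in 4 of 6 pigs (-0.15 ± 0.32), INPP5D in 5 of 6 (-0.08 ± 0.49) and TYROBP in 3 of 6 (-0.12 ± 0.38), and their exact sign permutation p ran from 0.281 to 0.594. In the 4 pigs with hippocampal microglia and tissue all 5 genes were higher in the microglia in 4 of 4, by 4.65 to 5.50 on the log2 scale, and the exact sign permutation p of 0.125 is the smallest that 4 pigs allow.

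**Figure D4:**
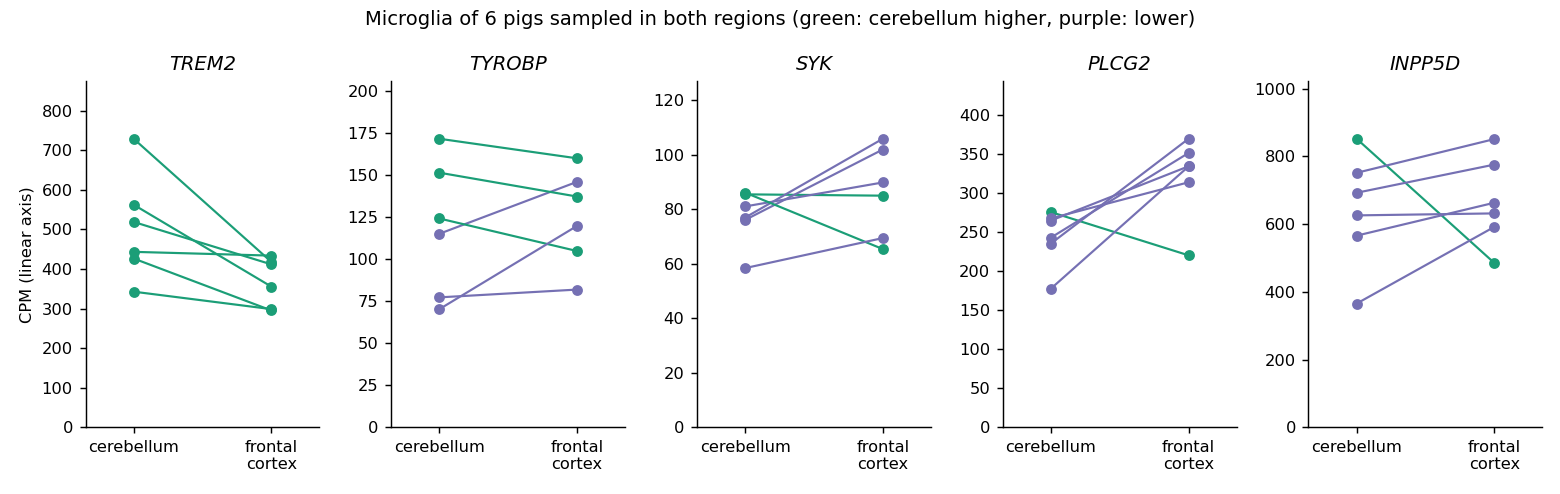
CPM of each gene in cerebellar and frontal cortex microglia of the 6 pigs with both, on linear axes from 0, 1 line a pig. TREM2 falls from cerebellum to frontal cortex in 6 of 6 pigs, and PLCG2 rises in 5 of 6.

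Across the 14 pigs with microglia, with region means removed and samples of a pig averaged, SYK and INPP5D varied together (Pearson r = 0.74, permutation p = 0.00245, adjusted over 10 pairs of genes 0.0245; Spearman rho = 0.74, permutation p = 0.00351, adjusted 0.0351). Without the 2 pigs farthest from the median of SYK, r was 0.54. Without the 5 samples with the most brain cell markers, which left 12 pigs, r was 0.63 and the adjusted permutation p 0.138. Over the 24 samples, which share pigs, the r with the total count was 0.68 for INPP5D and 0.48 for SYK, and with the sum of brain cell markers -0.44 and -0.47. The part of depth and of these cells in the relation was not tested. TREM2 and TYROBP had r = 0.62 (permutation p = 0.0192, adjusted 0.0961) and rho = 0.45 (permutation p = 0.113, adjusted 0.536). Their r was 0.18 without the 2 pigs farthest from the median of TREM2, a choice that also narrows the range of TREM2. Leaving out the same number of pigs raised r from 0.14 to 0.72 for TREM2 and SYK and from 0.05 to 0.66 for TREM2 and INPP5D, and those values were not tested. Within regions the r of TREM2 and TYROBP was 0.50 in the cerebellum, 0.79 in the frontal cortex and 0.72 in the hippocampus (n = 8 each). For these correlations the threshold was an adjusted p of 0.05, which none of the other 8 pairs passed.

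The wider pathway was followed in 8 lists of 90 genes with an identifier, of which 83 passed the filter on low counts. In microglia against alveolar macrophages 28 were called higher and 29 lower by edgeR (33.7% and 34.9%, against 23.5% and 24.0% of all genes, with a median log2 fold change of 0.11, against 0.06). The 29 include TREML2, HCST, TEC and PTPN22, which passed the filter on low counts through macrophages alone, so their call was all but fixed. They are also in the counts of single lists below, and no count was redone without such genes. In hippocampal microglia against tissue 49 were higher and 19 lower (59.0% and 22.9%, against 32.2% and 37.0% of all genes; median 1.16, against -0.08). The counts of single lists are read against the same shares of all genes. In the lists of 11 or more genes the share higher than in macrophages ran from 16.7% of the inhibitors, under that of all genes, through 4 of 16 genes of the phospholipase C and calcium branch, near it, to 46.2% of the PI3 kinase and AKT branch. The list genes called highest and lowest in each comparison are named, with the exception given under the methods.

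Among the ligands and the proteins that shed TREM2, 4 of 6 were higher in microglia than in macrophages and none lower. MS4A4A, a membrane protein tied to soluble TREM2 levels, led (log2 3.16 ± 0.57, edgeR adjusted p = 2.31e-05), and ADAM10, a protease that sheds TREM2, had the smallest called change (0.39 ± 0.13, adjusted p = 0.00907). Against tissue 4 were higher, MS4A4A most (5.51 ± 0.60), and 2 lower, with CLU, an apolipoprotein made by astrocytes, lowest (log2 -7.37 ± 0.81). Of 6 tested related receptors and adaptors 2 were higher and 3 lower in microglia. CSF1R, a receptor that shares TYROBP signals with TREM2, was at 2602 ± 598 CPM (SD) in microglia and 207 ± 82.0 CPM in macrophages (log2 3.65 ± 0.30). FCER1G, the other common ITAM adaptor of myeloid cells, led against tissue (5.29 ± 0.31), where PLXNA1, a semaphorin receptor that can pair with TREM2, was lowest (-2.81 ± 0.24).

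Of the 5 Src family kinases 2 were higher in microglia than in macrophages, SRC most (log2 1.57 ± 0.23), and FYN was lower (-4.84 ± 0.55). Against tissue 3 were higher and FYN was lower (-5.40 ± 0.78). FYN is also a kinase of T cells and neurons. Of the 11 scaffolds and exchange factors 4 were higher and 2 lower than in macrophages, from BLNK, an adaptor for PLCG2 (2.30 ± 0.19), to PTK2B (-0.79 ± 0.16), a calcium-dependent kinase. Against tissue 9 were higher, LCP2 most (5.43 ± 0.18), and PTK2B alone lower (-0.93 ± 0.17).

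In the phospholipase C and calcium branch 4 of 16 genes were higher and 6 lower than in macrophages. CARD9, an adaptor downstream of SYK, was highest (log2 2.06 ± 0.28), and TEC, a kinase of hematopoietic cells, lowest: it averaged 0.233 CPM in microglia, 22.6 ± 6.28 CPM in macrophages (SD, n = 3) and 2.15 ± 0.812 CPM in tissue. TEC passed the filter on low counts through macrophages alone. Against tissue 9 were higher and 5 lower, with BTK, a kinase that activates PLCG2, highest (4.80 ± 0.16) and TEC lowest. PLCG1, the second gamma isoform of the phospholipase, was lower in microglia than in macrophages (-1.54 ± 0.18) and than in tissue (-1.53 ± 0.19). In the PI3 kinase and AKT branch 6 of 13 were higher and 3 lower than in macrophages, from the catalytic subunit PIK3CB (2.26 ± 0.24) to PIK3CD (-1.47 ± 0.17). Against tissue 6 were higher and 3 lower, from PIK3CG (4.98 ± 0.19) to the regulatory subunit PIK3R2 (-1.74 ± 0.14).

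Of 12 inhibitors of ITAM signalling 2 were higher and 5 lower than in macrophages. SIRPA, an inhibitory receptor, was highest (log2 1.70 ± 0.27), and PTPN22, a phosphatase of lymphocytes and myeloid cells, lowest, at 0.494 CPM in microglia and 62.7 ± 9.24 CPM in macrophages (SD). Against tissue 9 were higher and 1 lower, from PTPN6, the SHP1 phosphatase (4.70 ± 0.19), to PTPN11 (-2.04 ± 0.17). Of 15 tested genes that mouse microglia raise around plaques in a partly TREM2-dependent way, 5 were higher and 9 lower than in macrophages. AXL, a receptor for dying cells, led (3.23 ± 0.18), and CTSL, a lysosomal protease, was lowest: it had 6 counts in 1 microglia sample, 0 in the other 23 and 34.7 ± 38.4 CPM in macrophages (SD). Against tissue 6 were higher and 5 lower, with CLEC7A at 1.08 CPM in hippocampal microglia and 0.0236 CPM in tissue at one end and CTSL at the other. Fitted folds of genes near 0 depend on the prior count and are not given here.

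**Figure D5:**
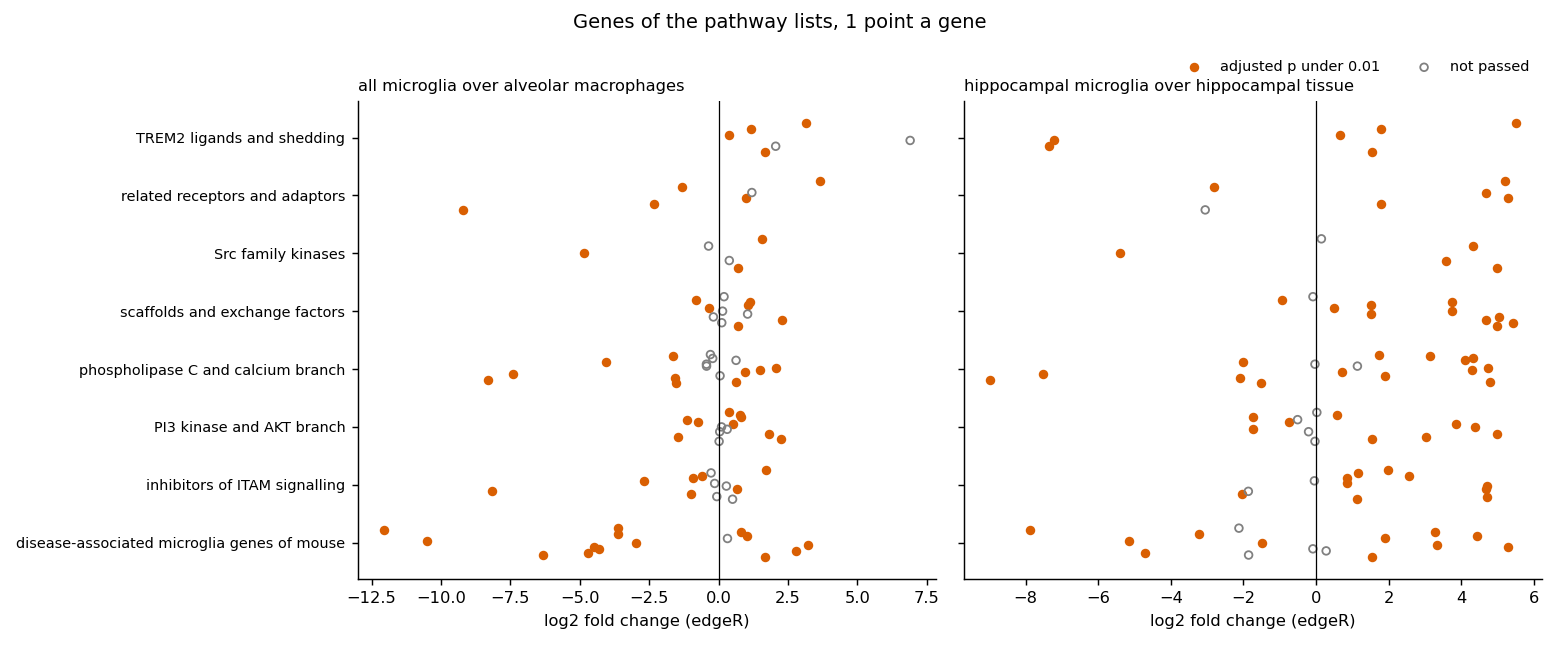
Log2 fold change of each tested gene of the 8 lists in 2 comparisons, with genes called at an adjusted p under 0.01 in orange. Against macrophages 28 genes lie right and 29 left of 0 among those called, against tissue 49 and 19.

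Between regions 4 of the 83 list genes passed the F test, against 2.03% of all genes. Of these, 3 were highest in the cerebellum. CTSB, a lysosomal protease, averaged 37.0 ± 23.2 CPM (SD, n = 8) in the cerebellum, 8.87 ± 4.88 CPM in the frontal cortex and 8.13 ± 3.26 CPM in the hippocampus (edgeR adjusted p = 2.22e-05). CSF1, a growth factor of microglia, was at 33.8 ± 19.1, 9.06 ± 5.76 and 8.02 ± 3.75 CPM (edgeR adjusted p = 0.000133), and SPP1, a secreted phosphoprotein, at 112 ± 79.3, 35.9 ± 15.7 and 37.7 ± 13.8 CPM (edgeR adjusted p = 0.0026). PTPN22, which passed the filter through macrophages alone, was at 0.356, 1.10 and 0.0229 CPM (edgeR adjusted p = 0.00942). The lymphocyte genes CD3D (1.04, 2.30 and 0.0324 CPM), CD3E (0.295, 1.07 and 0.0320 CPM) and KLRK1 (0.784, 2.23 and 0.0441 CPM) had the same order of regions. The whole T cell list did not, with median sums of 36.0, 27.3 and 44.8 CPM, highest in the hippocampus. The B cell list did not either (78.3, 67.8 and 66.8 CPM), and the NK cell list did (147, 156 and 129 CPM). The part of lymphocytes was not tested. With the pig as a block in edgeR 2 list genes passed, against 0.731% of all genes.

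The neighbours of TREM2 in its cluster, all on the minus strand of chromosome 7, had other patterns. TREM1, a receptor that also uses TYROBP, averaged 15.0 ± 4.74 CPM in the 3 alveolar macrophage samples (SD) and had at most 6 counts in any microglia sample, and the filter left it untested. TREML2 had 19.3 ± 4.97 CPM in macrophages and 0.0786 CPM in microglia. It passed the filter through macrophages alone, which all but fixes a call of lower in microglia, so no p-value is given. TREML1 was at 0.0207 CPM in microglia and at 0 counts in macrophages. HCST (DAP10), a sister adaptor that ends 150 bases from the end of TYROBP on the opposite strand, was at 23.1 ± 3.67 CPM in macrophages and 4.65 ± 1.88 CPM in microglia (log2 -2.32 ± 0.35). HCST also passed the filter through macrophages alone. The library kit keeps strand, and whether the counting used it is not given in the sources used here, so reads where the 2 genes meet could be shared.

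Over the 31 samples, the genes with a symbol whose log2 CPM was most like that of TREM2 were ADORA3 (Pearson r = 0.99), KCNK13, CX3CR1, RNF128 and LOC100624077 (r = 0.98 each), of 10133 compared. TYROBP ranked 1609th (r = 0.59) and INPP5D 1358th (r = 0.64). Within the 24 microglia samples, with region means removed, the most like TREM2 were AP2M1 (r = 0.87), PDPN (0.85), RHOA (0.84), CD68 and NOP16 (0.81 each), and TYROBP ranked 74th (r = 0.66). SYK, PLCG2 and INPP5D were between 0.00 and 0.07 there. These correlations describe samples that share pigs and library depth.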

How the data were processed

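The authors trimmed the paired reads with BBtools, aligned them to the pig genome Sscrofa11.1 (Ensembl annotation) with HISAT2, and took gene counts with StringTie. The deposited table holds these raw counts for 31 samples, without normalization. Groups came from the labels, and pigs from the tags in the sample titles. Same tags mark the same animal, so they pair samples. Group-centred profiles of 1 pig correlated at 0.0791 on average, from -0.374 to 0.433 over 25 pairs. Those of different pigs correlated at -0.00499 on average, from -0.573 to 0.645 over 347 pairs. The second range covers the first, so the profiles cannot check the tags. No 2 samples of a group were copies (lowest chi-square per degree of freedom 29.6).

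A gene was kept when 1 or more groups had it above 10 CPM in each of their samples (11633 of 31907). Counts were fitted with edgeR 4.0.16 in R 4.3.3 (TMM, quasi-likelihood, robust) in 1 model of the 5 groups, and p-values were adjusted by Benjamini-Hochberg with a threshold of 0.01. The study used limma-voom, run here as an alternative (limma 3.58.1), as were DESeq2 1.42.0, other factors and filters, the pig as a replicate block and each of the 31 samples left out. SE came from the quasi-likelihood F. Log2 CPM used a prior count of 2. Exact permutation tests and permutation tests with 100000 resamples were two-sided (numpy 2.4.6 in Python 3.11.15). The fits were also run on simulated counts with known changes. These had independent samples, no pig effect and otherwise 1 mean a gene over all groups. They do not check the fits for shared pigs or for groups near 0 counts. Symbols came from the study's supplementary tables (3689 genes) and the RefSeq gene table of release 106 (11778), which also gave positions. Sequences were read from the reference assembly, and no protein sequence was used. List genes are named where they had the largest or smallest called fold change of their list or passed the regional F test, except 1 gene that is not reported here. PLCG1 was added for contrast after its values were seen. The members and lists were chosen with earlier results of these data known. Of 100 list symbols 90 had an identifier.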

Additional observations from a re-analysis of the deposited data

Results flagged for a closer look

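In 20 tests of a sample far from the others of its group, 5 genes in the 4 groups of 4 or 8 samples, 1 value stood apart, and chance alone flags about 1 in 20. PLCG2 in frontal cortex microglia of pig 12599 was at 221 CPM, below the next lowest sample at 303 CPM, and the gap was 0.55 of the range of the group. The same sample had the highest sum of neuron, astrocyte and oligodendrocyte markers of all microglia samples, 2153 CPM, and the part of these cells in its PLCG2 level was not tested.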

How the results depend on the processing

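Of 1227 results and alternatives compared, 1129 kept their direction and side of the threshold. The alveolar macrophages were only 3 samples, and TREM2 there rests on 18 to 172 counts. Housing, and the lymphoid and neutrophil markers in those samples, were not tested as a part of any difference.

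In microglia against alveolar macrophages SYK passed with DESeq2 and with RLE factors (log2 -0.393 each), with the filterByExpr filter (-0.468), with no filter (-0.476) and at an adjusted p under 0.05 (-0.342), which made 2 members lower. With the pig as a replicate block in edgeR, TYROBP passed (0.968). Tested against the 3-fold threshold itself, PLCG2 (-0.668) and INPP5D (0.805) no longer passed, which left 1 member higher and 0 lower. Of the 83 tested pathway genes 5 were then higher and 15 lower, against 867 higher and 712 lower of all 11633 genes. The same test against 4-fold left 30 pathway genes higher and 10 lower in hippocampal microglia against tissue, against 944 higher and 1843 lower of all genes. With each sample left out in turn, TREM2 ran from 7.20 to 8.84.

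In cerebellar against frontal cortex microglia, PLCG2 was lost with filterByExpr and with no filter (-0.466 each) and with the pig block in edgeR (-0.429), which left 0 members lower. It ran from -0.503 to -0.412 with each sample left out, and the members lower from 0 to 1. For the F test over regions, PLCG2 passed with limma-voom (adjusted p = 0.009), limma-voom with the pig block (0.005), DESeq2 (0.000443), RLE factors (0.00912), no factors (0.0062) and the microglia alone (0.00766), and at an adjusted p under 0.05 (0.0112), which made 1 member called. With each sample left out the adjusted p ran from 0.00189 to 0.028 and the members called from 0 to 1. Pathway genes called were 7 with DESeq2, which called 6.53% of all genes, and 2 with the pig block in edgeR, which called 0.731%. At an adjusted p under 0.05 they were 9, and the share of all genes at that threshold was not taken.

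Frontal cortex over hippocampal microglia changed sign for TREM2 with limma-voom (0.00377) and, without factors, for TREM2 (0.102), TYROBP (0.0543), SYK (0.0826) and INPP5D (0.006). INPP5D within pigs in hippocampal microglia against tissue was 4.82 without factors. TREM2 relative to TYROBP in hippocampal microglia minus tissue was 0.0181 within pigs and ran from -0.314 to 0.179 with each sample left out. Frontal cortex minus hippocampus ran from -0.00717 to 0.0956. Cerebellum minus hippocampus was 0.452 within pigs, where 4 pigs cannot reach the threshold. Without the 5 samples with the most brain cell markers, an alternative chosen after seeing the data, as were the within-pig ratios, cerebellum minus frontal cortex was 0.33 and cerebellum minus hippocampus 0.422.

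Across pigs, r without factors was -0.012 for TYROBP and SYK and -0.0189 for TYROBP and PLCG2. Over 24 samples in place of pig means it was 0.661 for TREM2 and TYROBP, 0.00401 for TREM2 and PLCG2, 0.533 for SYK and PLCG2 and 0.632 for PLCG2 and INPP5D. Without the 5 samples it was -0.0888 for TREM2 and INPP5D, -0.0578 for TYROBP and SYK, -0.16 for TYROBP and PLCG2, -0.125 for TYROBP and INPP5D, 0.629 for SYK and INPP5D and -0.203 for PLCG2 and INPP5D. The causes of these changes were not tested. The pig block changed no other call of a member.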
